A study of Homo sapiens with 10 samples.

Results

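The 10 genes described here control the passage of the cell cycle from G1 into S phase. They are the D-type cyclins CCND1 and CCND3, the E-type cyclins CCNE1 and CCNE2, the kinases CDK4 and CDK2, the inhibitors CDKN2C and CDKN1B, the pocket protein RBL1 and the transcription factor E2F1. Members were the rows of the count table whose gene symbol was on this list, which gave 10 of 57353 rows, and 10 of the 10 passed the filter on low counts that left 17230 genes for testing. All 10 RNA samples came from LNCaP-C4-2, a castration-resistant line derived from LNCaP prostate cancer cells. Cells with a non-targeting shRNA (NT, n = 2) were the control for cells with an shRNA against CPT1A (KD, n = 3). Cells with an empty virus (EV, n = 2) were the control for cells that over-expressed CPT1A from a lentiviral cDNA (OE, n = 3). CPT1A is the enzyme of the outer mitochondrial membrane that commits long-chain fatty acids to oxidation. Puromycin was used with the shRNA and blasticidin with the cDNA, so vector and drug differ between the arms and cannot be told apart from the difference between the 2 control lines. Only 1 line of each kind is described, with no separate transductions mentioned, so p-values measure the spread between samples of a line, which may be technical.

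In G1, D-type cyclins bind CDK4 or CDK6 and start the phosphorylation of the retinoblastoma family of pocket proteins, to which RBL1 (p107) belongs. Pocket proteins hold back the E2F transcription factors, and their phosphorylation frees E2F1 and its relatives to switch on genes for DNA replication, among them the E-type cyclins that activate CDK2. INK4 proteins such as CDKN2C (p18) bind CDK4 and CDK6, while Cip/Kip proteins such as CDKN1B (p27) bind and restrain cyclin E with CDK2. Several of these genes, E2F1, CCNE1, RBL1 and CDK2 among them, are themselves known to be raised by E2F as cells enter S phase.

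Sample depth was 23555205 to 28615770 counts, and 3 counts corresponded to 0.0995 to 0.136 TMM-scaled CPM (counts scaled to a common library size). CPT1A was at 265 and 262 CPM in NT and at 81.2, 86.4 and 86.2 in KD, a 3.11-fold lower level. It was at 326 and 318 CPM in EV and at 869.8, 914 and 861 in OE. The prostate luminal markers were expressed throughout: each of 8 markers lay between 345 and 5946 CPM in all samples, and their sum ran from 6505 to 6779 CPM in NT and 9015 to 9819 in KD, and from 8817 to 9156 in EV and 11791 to 12102 in OE. Of 6 markers of leukocytes, fibroblasts, endothelium and basal epithelium, PECAM1 and KRT5 had 0 counts, PTPRC and TP63 at most 1 count, and the fibroblast collagens COL1A1 and COL3A1 carried the sum, at 9.92 to 11.2 CPM in NT and 16 to 17.2 in KD, and at 8.85 to 9.94 in EV and 11.2 to 12.9 in OE. Both sums were higher in KD than in NT and in OE than in EV, and their part in the results was not tested. KLK3, at 2355 to 5946 CPM, weighed most in the luminal sum, which does not give the direction of each marker. Differences were tested with the quasi-likelihood F test of edgeR on all 10 samples, and a gene was called at a Benjamini-Hochberg adjusted p under 0.0001, the limit of the study.

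RefSeq promoter sequences on GRCh38.p14 were matched for 7 of the 10 genes, covering 250 bases before and 50 bases after each annotated start. E2F1 and RBL1 are shown because, among those 7, they were the ones with an E2F site, searched as TTTCCCGC, TTTCGCGC, TTTGCCGC or TTTGGCGC on both strands. CCNE1 is shown for contrast, since its transcript moved with those of E2F1 and RBL1 on CPT1A knockdown but its window held none of these letters. The upstream 250 bases are given 5′ to 3′ in the direction of transcription, E2F1 from chr20:33686386-33686635 (minus strand), RBL1 from chr20:37095998-37096247 (minus strand) and CCNE1 from chr19:29811741-29811990 (plus strand). Capitals mark E2F sites in E2F1 and RBL1, and GC boxes (GGGCGG, either strand) in CCNE1.
E2F1: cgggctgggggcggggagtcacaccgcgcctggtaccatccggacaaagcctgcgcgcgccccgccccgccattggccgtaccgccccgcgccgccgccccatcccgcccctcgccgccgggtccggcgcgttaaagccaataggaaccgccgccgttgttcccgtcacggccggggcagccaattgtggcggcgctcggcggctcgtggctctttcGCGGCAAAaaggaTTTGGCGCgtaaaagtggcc
RBL1: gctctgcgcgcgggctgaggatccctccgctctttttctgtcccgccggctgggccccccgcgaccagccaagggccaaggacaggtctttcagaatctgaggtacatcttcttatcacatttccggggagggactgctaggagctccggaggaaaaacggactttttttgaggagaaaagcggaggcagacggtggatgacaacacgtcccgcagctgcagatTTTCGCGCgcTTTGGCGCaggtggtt
CCNE1: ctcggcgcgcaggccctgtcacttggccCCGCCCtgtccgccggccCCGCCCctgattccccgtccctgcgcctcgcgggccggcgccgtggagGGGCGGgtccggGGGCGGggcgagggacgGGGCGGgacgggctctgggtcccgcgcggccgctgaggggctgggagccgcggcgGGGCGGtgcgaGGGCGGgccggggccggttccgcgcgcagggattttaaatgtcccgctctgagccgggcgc

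E2F1 carried 2 E2F sites, starting 33 bases before its start on the opposite strand and 20 bases before it on the same strand. RBL1 also carried 2, starting 26 and 16 bases before its start. An E2F site of these letters was found in 3.31% of 35116 promoter windows of the same length. The window of CCNE1 held 7 GC boxes and that of E2F1 held 6, and 45% of all windows held at least 1. E2F1 and CDKN1B each had 3 CCAAT boxes, a motif found in 34.6% of windows. The CHR motif of late cell cycle genes (TTTGAA), present in 15.2% of windows, was not found in a window of any of the 7 genes. No E2F site of these letters was found in the windows of CCND3 (3 starts), CDK4, CDKN2C (3 starts), CDKN1B or CCNE1, which describes these letters in these windows and nothing about binding.

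On CPT1A knockdown, 9 of the 10 genes were called higher and none lower. The 10 genes were chosen with earlier results of these data known, so the count is a description. The inhibitor CDKN2C rose 3.73-fold and E2F1 3.63-fold, while CDK2, CCNE1 and CCND3 rose about as much as each other, 2.16-fold, 2.02-fold and 2.00-fold. RBL1 rose 1.65-fold, CCNE2 1.51-fold, CDK4 1.28-fold and CCND1 1.2-fold. CDKN1B had a log2 fold change of -0.21 and was not called. In bulk RNA, a different number of cells in a phase of the cycle and a different amount of RNA per cell cannot be told apart. Of all tested genes, 16.8% were called higher and 13.0% lower in KD than in NT. The median log2 fold change of the 10 genes was 0.86, and that of all genes was -0.02. Samples of KD and NT did not overlap for 10 of the 10 genes, as for 70.6% of all tested genes. Without NT replicate 1 the number of members called was 6 rather than 9.

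**Figure D1:**
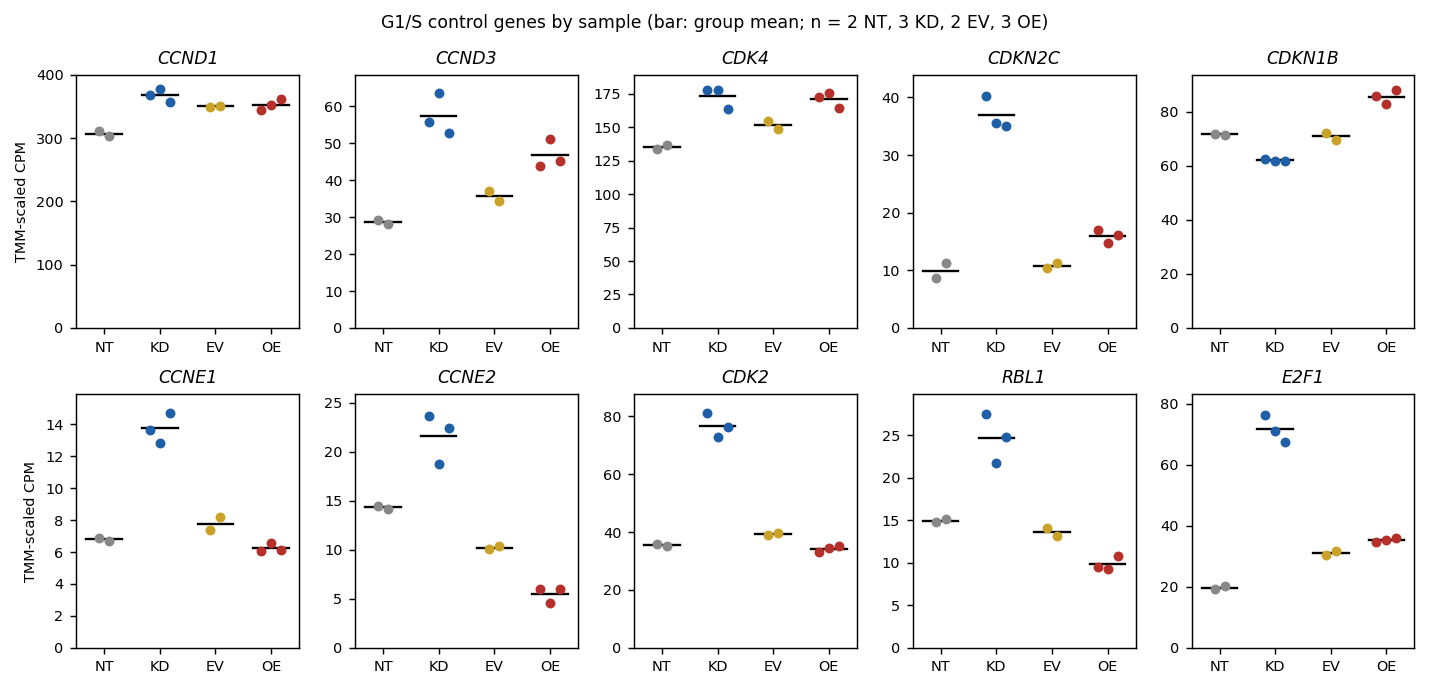
TMM-scaled CPM of each of the 10 genes (y axis from 0) by group (x axis), 1 point per sample with a bar at the group mean (n = 2 NT, 3 KD, 2 EV, 3 OE). The KD samples stand above both controls for 9 genes and below them for CDKN1B, and the OE samples are lowest of all for CCNE1, CCNE2, CDK2 and RBL1.

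On CPT1A over-expression, CDKN2C rose 1.47-fold, CDKN1B rose 1.21-fold and CCNE2 fell to a level 1.84-fold lower, and the other 7 genes were not called. The background was 12.2% of all genes higher (2104) and 10.4% lower (1791) in OE than in EV. With scaling by library size alone this split became 1338 higher and 2185 lower, and the median of all genes moved from -0.02 to -0.12 on the log2 scale. The members' median log2 fold change was 0.09. Samples of OE and EV did not overlap for 9 of 10 genes, as for 68.9% of all genes. The number of members called was 1 to 5 when each sample in turn was left out, 1 with library size alone and 5 with no filter on low counts.

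**Figure D2:**
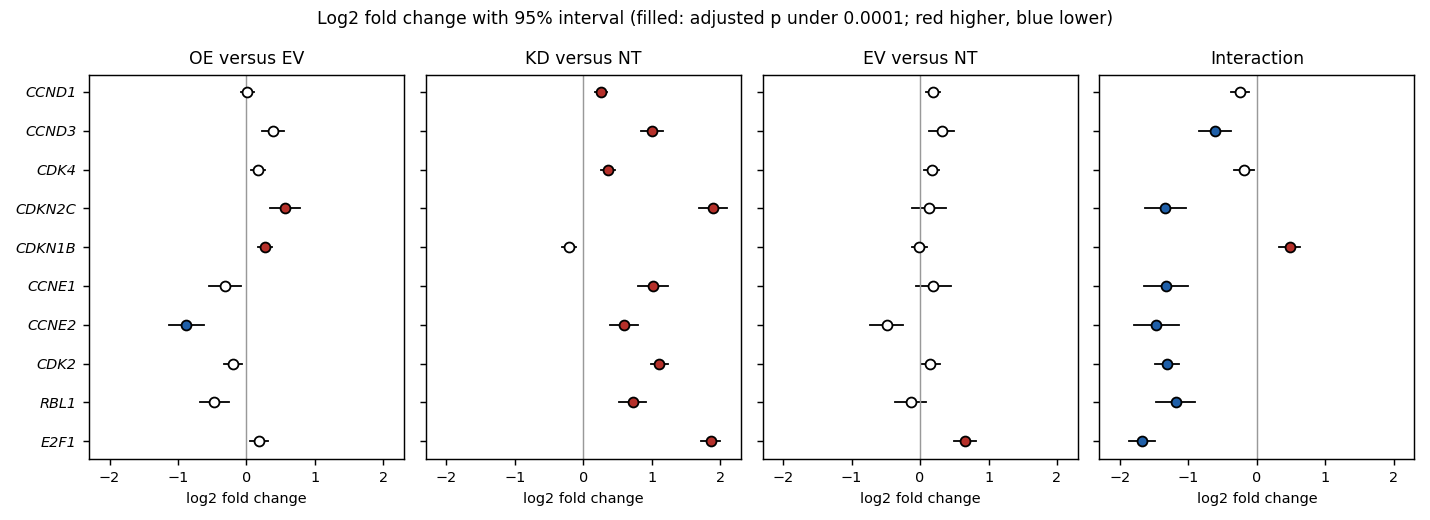
Log2 fold changes of the 10 genes (x axis) with 95% intervals in 4 comparisons, filled red where called higher and blue where called lower at an adjusted p under 0.0001. In KD versus NT 9 points are filled red, whereas in OE versus EV 2 are red, 1 is blue and the values lie on both sides of 0.

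CCND1, the D-type cyclin with the most counts here, was at 312 and 303 CPM in NT, 368, 378 and 357 in KD, 349.8 and 351 in EV, and 345, 352 and 362 in OE. The NT samples were the lowest, and the other 3 groups lay close together, with EV and OE overlapping and OE and KD overlapping. CCND1 rose in KD by a log2 fold change of 0.26 (SE 0.0451, edgeR adjusted p = 1.64e-05), a call that was lost without NT replicate 1, NT replicate 2 or KD replicate 1 (adjusted p = 0.000487, 0.0020 and 0.000139). In OE versus EV its log2 fold change was 0.01 (95% interval -0.08 to 0.10), and its sign turned to -0.087 with library size alone.

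CCND3, the other D-type cyclin among the members, was at 29.2 and 28.1 CPM in NT and at 55.6, 63.6 and 52.8 in KD. Its level was 37.0 and 34.3 CPM in EV and 43.7, 51.2 and 45.2 in OE, and the 4 groups did not overlap, in the order NT, EV, OE and KD. The rise in KD was 1.00 on the log2 scale (SE 0.0785, edgeR adjusted p = 5.47e-11). In OE versus EV the log2 fold change of CCND3 was 0.39 (SE 0.0776), with an edgeR adjusted p of 0.000175 that missed the limit. That value passed it with DESeq2 (3.25e-05), with no filter (6.01e-08), with the arm fitted alone (2.70e-06), with a replicate block (9.41e-06) and without KD replicate 2 or 3 (1.55e-06 and 6.08e-05). Ratios of CCND1 to CCND3 counts within a sample, which do not depend on scaling, were 10.7 ± 0.0868 in NT against 6.44 ± 0.435 in KD, and 9.83 ± 0.547 in EV against 7.59 ± 0.627 in OE (SD). The ratios are given as a description and were not tested.

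CDK4, the kinase partner of the D-type cyclins, was at 133.4 and 137 CPM in NT, 177, 178 and 164 in KD, 155 and 149 in EV, and 172, 175 and 164 in OE. KD and OE overlapped at the top, EV lay between, and NT was lowest. CDK4 rose in KD by 0.36 on the log2 scale (SE 0.0494, edgeR adjusted p = 4.25e-07), and without NT replicate 1 the adjusted p was 0.000128. In OE versus EV its log2 fold change was 0.17 (95% interval 0.07 to 0.27), which was not called at an edgeR adjusted p of 0.00481.

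The INK4 inhibitor CDKN2C had the largest fold change of the 10 genes in KD. It was at 8.60 and 11.2 CPM in NT, and at 40.3, 35.6 and 35.1 in KD. In EV it was at 10.4 and 11.3 CPM, and in OE at 17.0, 14.7 and 16.1. The 2 controls overlapped, OE lay wholly above both and KD stood wholly above OE. CDKN2C rose in KD by 1.90 on the log2 scale (SE 0.0995, edgeR adjusted p = 1.96e-15) and in OE by 0.56 (SE 0.105, adjusted p = 5.82e-05), so this inhibitor was called higher in both arms. The call in OE was lost without EV replicate 1 or 2 or without OE replicate 1 or 3 (adjusted p = 0.000374 to 0.00343), and also with limma-voom (0.00029), library size alone (0.00157) and a minimum of 10 counts in every sample (0.000117).

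CDKN1B, the Cip/Kip inhibitor p27, was the one gene of the 10 with KD as its lowest group. It was at 71.7 and 71.6 CPM in NT, 62.7, 61.9 and 61.7 in KD, 72.4 and 69.8 in EV, and 86.0, 82.9 and 88.1 in OE. NT and EV overlapped, every KD sample lay below them and every OE sample above. CDKN1B rose in OE by 0.27 on the log2 scale (SE 0.0507, edgeR adjusted p = 5.67e-05). In KD versus NT its log2 fold change was -0.21 (95% interval -0.31 to -0.10) at an edgeR adjusted p of 0.000976, which missed the limit. The call in OE was lost without either NT replicate, either EV replicate or OE replicate 1 or 3 (adjusted p = 0.000133 to 0.00491), with library size alone (0.00455) and, at the limit itself, with a minimum of 10 counts in every sample (0.000100006).

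For the E-type cyclins and CDK2, KD was the highest group and OE the lowest. CCNE1 was at 6.90 and 6.71 CPM in NT and at 13.7, 12.9 and 14.7 in KD. It was at 7.37 and 8.19 CPM in EV and at 6.06, 6.56 and 6.15 in OE. The KD samples stood well apart, whereas the highest OE sample and the lowest NT sample were close together. CCNE1 rose in KD by 1.015 on the log2 scale (SE 0.106, edgeR adjusted p = 3.08e-09), and its log2 fold change in OE versus EV was -0.32 (95% interval -0.55 to -0.08), not called at an adjusted p of 0.0232.

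CCNE2, the second E-type cyclin, was at 14.5 and 14.2 CPM in NT, 23.7, 18.8 and 22.4 in KD, 10.1 and 10.3 in EV, and 5.98, 4.62 and 5.96 in OE. None of the 4 groups overlapped, and the order was OE, EV, NT and KD. CCNE2 fell in OE by 0.88 on the log2 scale (SE 0.124, edgeR adjusted p = 9.73e-07), the one call of a lower level among the 10 genes in that comparison. It rose in KD by 0.59 (SE 0.0999, edgeR adjusted p = 9.57e-06), and this call was lost without NT replicate 1 or 2 or KD replicate 1 or 3 (adjusted p = 0.000115 to 0.000789). CCNE2 was also the member whose 2 controls differed most downward, with a log2 fold change of -0.49 for EV versus NT (95% interval -0.73 to -0.25), not called at an edgeR adjusted p of 0.00186.

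CDK2, the kinase that E-type cyclins activate, was at 35.8 and 35.3 CPM in NT, 81.1, 73.0 and 76.3 in KD, 38.8 and 39.8 in EV, and 33.2, 34.4 and 35.2 in OE. The KD samples stood far above every other sample, and the rest lay within a narrow band. CDK2 rose in KD by 1.11 on the log2 scale (SE 0.0601, edgeR adjusted p = 2.98e-15). Its log2 fold change in OE versus EV was -0.20 (95% interval -0.33 to -0.07), not called at an adjusted p of 0.00826.

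The ratio of CCNE1 to CCNE2 counts was lowest in NT, at 0.475 ± 0.00224, followed by 0.640 ± 0.0555 in KD, 0.762 ± 0.0421 in EV and 1.16 ± 0.230 in OE (SD), and the samples of the 4 groups did not overlap. In the OE samples alone it was above 1, at 1.01, 1.42 and 1.03. For CDK4 to CDK2 the ratio was 3.80 ± 0.101 in NT and 3.86 ± 0.169 in EV, against 2.26 ± 0.158 in KD and 4.99 ± 0.286 in OE. The kinase ratio therefore lay on opposite sides of the controls in KD and OE.

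**Figure D3:**
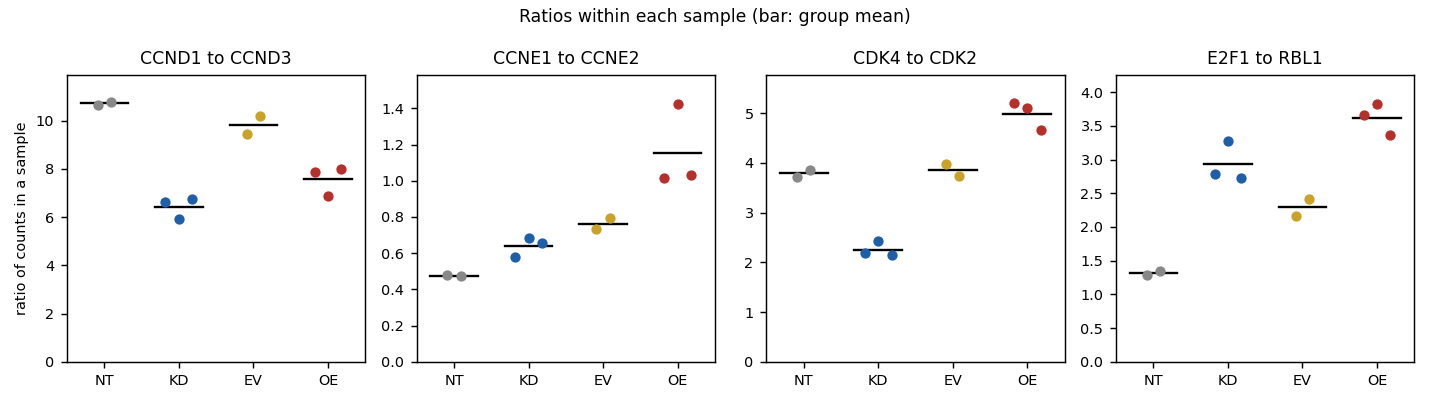
Ratio of the counts of a pair of genes within each sample (y axis from 0) by group (x axis), 1 point per sample with a bar at the group mean. The CDK4 to CDK2 ratio is 2.15 to 2.44 in KD, 3.72 to 3.98 in the controls and 4.66 to 5.20 in OE.

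RBL1, the pocket protein p107, was at 14.8 and 15.1 CPM in NT, 27.5, 21.7 and 24.7 in KD, 14.1 and 13.1 in EV, and 9.45, 9.23 and 10.8 in OE. KD was wholly above and OE wholly below the controls. RBL1 rose in KD by 0.72 on the log2 scale (SE 0.0941, edgeR adjusted p = 1.72e-07). In OE versus EV its log2 fold change was -0.47 (95% interval -0.68 to -0.25) at an edgeR adjusted p of 0.000466, which missed the limit in the test as run and passed it with no filter (4.05e-05) and without KD replicate 2 (4.49e-05).

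E2F1, the transcription factor that pocket proteins restrain, was at 19.1 and 20.3 CPM in NT, 76.3, 71.2 and 67.6 in KD, 30.5 and 31.7 in EV, and 34.6, 35.3 and 36.1 in OE. The groups did not overlap; the KD samples stood far above the rest. E2F1 rose in KD by 1.86 on the log2 scale (SE 0.068, edgeR adjusted p = 6.51e-19). Its log2 fold change in OE versus EV was 0.18 (95% interval 0.05 to 0.32), not called at an adjusted p of 0.0209. E2F1 in OE was slightly above EV and RBL1 below it, neither of them called. Any relation to the E2F sites shown above was not tested. The ratio of E2F1 to RBL1 counts, a pair chosen after its values were seen, was 1.32 ± 0.0357 in NT against 2.93 ± 0.304 in KD, and 2.29 ± 0.182 in EV against 3.61 ± 0.233 in OE (SD).

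The 2 control lines were compared because a difference between them enters any reading across the arms. E2F1 was the one member called in EV versus NT, higher by 0.66 on the log2 scale (SE 0.0766, edgeR adjusted p = 1.21e-07) or 1.58-fold. Of all genes, 5.89% were called higher and 3.01% lower in EV. CCND1 and CCND3 were higher in EV by 0.19 and 0.32 on the log2 scale without being called (edgeR adjusted p = 0.00351 and 0.0064). The members' median log2 fold change was 0.16 and that of all genes -0.004, and samples of EV and NT did not overlap for 8 of 10 genes, as for 68.1% of all genes. E2F1 in EV was therefore closer to OE than to NT.

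The study set OE against KD by an interaction, in which the KD versus NT change is subtracted from the OE versus EV change. In this contrast 7 members were called lower, 1 was called higher, and CCND1 and CDK4 were not called, against 9.40% of all genes lower (1619) and 7.31% higher (1259). With library size alone this split became 779 higher and 2265 lower, with a median of all genes of -0.15 rather than -0.02. E2F1 had the most negative value, -1.68 on the log2 scale (SE 0.0946, edgeR adjusted p = 2.71e-14). It was followed by CCNE2 at -1.47, CDKN2C at -1.34, CCNE1 at -1.33, CDK2 at -1.31, RBL1 at -1.19 and CCND3 at -0.61. CDKN1B was the one member with a positive value, 0.48 (SE 0.0717, edgeR adjusted p = 3.51e-06), and its call was lost without EV replicate 2 (adjusted p = 0.000145) and with library size alone (0.34, adjusted p = 0.000258). The call of CCND3 (adjusted p = 6.08e-05) was lost without either NT or EV replicate, KD replicate 1 or OE replicate 1 or 3 (0.000127 to 0.00178), and with limma-voom (0.000147). Each interaction value is built from the 2 comparisons above and adds no separate measurement of a gene.

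The contributions to the interaction differed between members. For CCNE2, the change in OE (-0.88) was larger in size than the change in KD (0.59), whereas for E2F1 and CDKN2C the change in KD was larger than the interaction, since the change in OE was positive as well. For CDK2, CCNE1 and RBL1 the 2 changes had opposite signs, and that in KD was the larger. CCND1 and CDK4 had positive values in both arms, and their interaction was -0.25 (95% interval -0.38 to -0.12) and -0.19 (95% interval -0.33 to -0.05), not called at edgeR adjusted p of 0.0022 and 0.0279. With library size alone the interaction of CCND1 was -0.38 and was called (adjusted p = 3.07e-06).

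**Figure D4:**
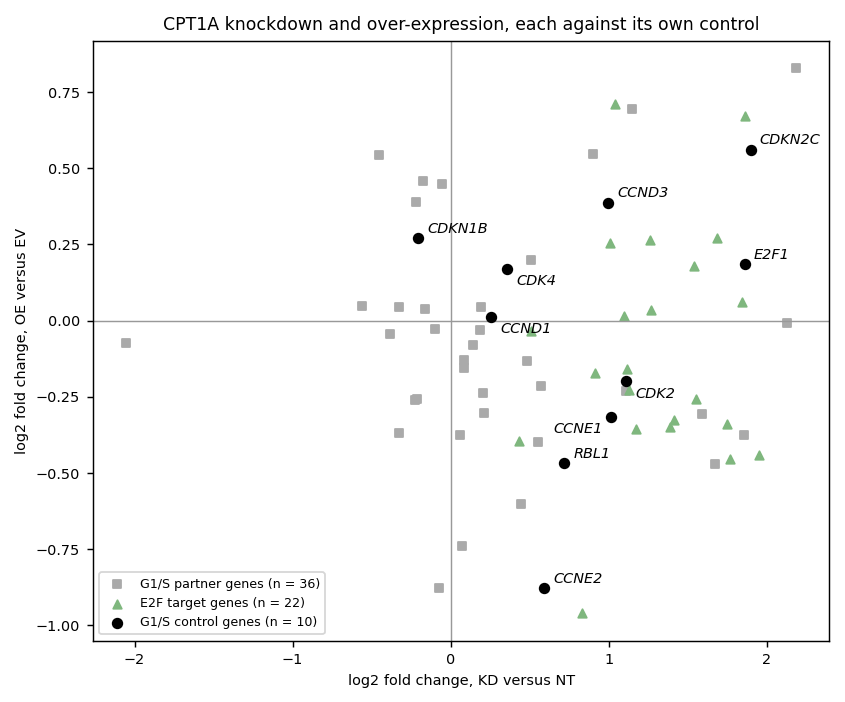
Log2 fold change in OE versus EV (y axis) against that in KD versus NT (x axis, on a different scale) for the 10 genes, 36 partner genes and 22 E2F target genes, 1 point per gene. Every E2F target lies to the right of 0, and the members divide into those above 0 (CCND1, CCND3, CDK4, CDKN2C, E2F1, CDKN1B) and those below it (CCNE1, CCNE2, CDK2, RBL1); the point far left is CCND2, which is near the detection floor.

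Among 36 other genes of the G1/S machinery, 10 rose and 2 fell in KD, against 16.8% of all genes higher and 13.0% lower, and the list median was 0.11 on the log2 scale. Those with the largest change were CCNA2, the cyclin that follows cyclin E (2.19, adjusted p = 1.55e-11), the activator E2F2 (2.13, 8.39e-14), and the repressive E2Fs E2F8 (1.85, 2.79e-11) and E2F7 (1.67, 2.57e-14), all by edgeR. E2F7 was at 7.81 and 9.17 CPM in NT and at 29.1, 25.2 and 26.8 in KD. The 2 that fell were RBL2, the pocket protein p130 of quiescent cells (1.26-fold lower, edgeR adjusted p = 1e-06), and CDK7, the catalytic subunit of the CDK-activating kinase, named after its values were seen (edgeR adjusted p = 7.86e-05). RBL2 thus changed in the other direction from its relative RBL1: RBL2 was at 159 and 163 CPM in NT and at 124, 130.3 and 130.1 in KD.

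In OE, 5 of the 36 rose and 2 fell, with a median of -0.10, so the share of the list that rose was near the 12.2% of all genes and the share that fell was under the 10.4% of all genes. The cyclin CCNA2 rose by 0.83 (edgeR adjusted p = 1.42e-05), the INK4 inhibitor CDKN2D by 0.69 (1.25e-06), the CDK-binding protein CKS1B by 0.55 (4.37e-06) and the Cip/Kip inhibitor CDKN1A by 0.46 (6.55e-07). CDC34, a ubiquitin-conjugating enzyme named after its values were seen, also rose, by 0.45 (2.56e-07). The transcription factor E2F3 fell by 0.40 on the log2 scale (1.01e-05), and TFDP2, a dimer partner of E2Fs that was named after its values were seen, by 0.26 (7.69e-05). CDKN1A (p21) was at 93.2, 93.7 and 89.5 CPM in OE and at 63.9 and 70.3 in EV, and at 72.9 and 60.6 in NT and 60.6, 58.4 and 58.3 in KD, and it was called higher in OE, as CDKN1B was. The INK4 relative CDKN2D resembled CDKN2C in being called higher in both arms, at 16.9, 15.6 and 15.7 CPM in KD against 6.75 and 7.74 in NT, and at 13.8, 15.3 and 14.2 in OE against 8.89 and 8.88 in EV.

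The direct partners CDK6 and RB1 were not called in any comparison. CDK6, the second kinase of D-type cyclins, was at 5.62, 4.62 and 7.12 CPM in OE and at 9.87 and 9.61 in EV (edgeR adjusted p = 0.000151), and RB1 was at 33.4, 34.4 and 33.2 in OE and at 43.4 and 43.97 in EV (0.000113). CCND2, the third D-type cyclin, had 17 and 10 counts in NT and 1 to 7 counts in the other samples, and no fold is given. In EV versus NT, CDC25A was called higher (0.62, edgeR adjusted p = 2.39e-05), and CDKN2A (-0.59, 4.97e-06), CCNH (-0.54, 3.21e-06) and RBL2 (-0.31, 3.77e-05) lower, with a list median of -0.01, against 5.89% of all genes higher and 3.01% lower. In the interaction, 4 partner genes were called higher and 8 lower (all genes 7.31% and 9.40%), with a median of -0.27, and E2F8 (-2.23), E2F7 (-2.14), E2F2 (-2.14) and CDC25A (-1.90), the phosphatase that activates CDK2, had the most negative values (edgeR adjusted p = 1.08e-12 to 6.65e-09).

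All 22 E2F target genes of DNA replication rose in KD, by 0.43 to 1.95 on the log2 scale, with a median of 1.27, where 16.8% of all genes were called higher. The list was chosen with earlier results of these data known, so these counts are a description. UHRF1, which maintains DNA methylation at replication (1.95), TK1, a thymidine kinase (1.87), RRM2, a ribonucleotide reductase subunit (1.85), and the replication factor MCM10 (1.77) rose most. UHRF1 was at 10.9 and 11.2 CPM in NT and at 43.2, 42.1 and 43.0 in KD. In OE, 2 of the 22 rose, 5 fell and 15 were not called, with a median of -0.17, against 12.2% of all genes higher and 10.4% lower. The licensing factor CDT1 rose by 0.71 (edgeR adjusted p = 1.35e-08) and TK1 by 0.67 (1.15e-08), while POLE2, a subunit of DNA polymerase epsilon, fell by 0.96 (2.31e-05) and POLA1, the catalytic subunit of DNA polymerase alpha, by 0.40 (1.89e-05). MCM3, MCM4 and MCM6, subunits of the replicative helicase, also fell in OE, and MCM4 and MCM6 were named after their values were seen. TK1 was at 85.6, 84.9 and 79.6 CPM in OE against 50.8 and 54.0 in EV, and MCM3 at 73.4, 72.5 and 75.6 against 95.8 and 92.3.

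The helicase subunits MCM3 (0.53) and MCM7 (0.36) were the targets called in EV versus NT, both higher, and the list median was 0.22 (edgeR adjusted p = 1.71e-08 and 2.06e-05). In the interaction 21 of the 22 targets were called lower (all genes 9.40%), from -0.54 for SLBP to -2.39 for UHRF1, with a list median of -1.36. The exception was CDT1 at -0.33 (edgeR adjusted p = 0.011). CDT1 had risen in both arms, as had TK1, which was among the 21 called lower (-1.20). The targets with the most negative values after UHRF1 were MCM10 (-2.22), CDC45 (-2.09) and GINS2 (-1.81), all parts of the machinery that starts replication.

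Levels per length depend on the length used. Here it was all annotated exons of a gene merged, 9.255 kb for CDKN1B and 2.69 kb for E2F1. The transcripts present may be shorter, so the order of genes below is approximate. Per kilobase of annotated exon, CCND1 (64.5 CPM per kb in NT) and CDK4 (43.6) were the most abundant of the 10 in every group, and RBL1 (2.51) was the least in NT. E2F1 was at 7.34 CPM per kb in NT, slightly under CDKN1B at 7.74. In KD, E2F1 was at 26.7, above both CDKN1B (6.71) and CDK2 (19.8). Not divided by length, mean levels in NT were 19.7 CPM for E2F1 and 71.7 for CDKN1B. In KD they were 71.7 CPM for E2F1 and 62.1 for CDKN1B. CDKN2C moved from 3.29 CPM per kb in NT, beside CCNE2 at 3.26, to 12.3 in KD, beyond CCND3 at 9.95. In OE, CCNE2 was the least abundant of the 10 at 1.26 CPM per kb, under RBL1 at 1.65. As a share of all counts, the 10 genes took 0.0650% to 0.0652% in NT and 0.0923% to 0.0966% in KD, against 0.0731% to 0.0732% in EV and 0.0718% to 0.0731% in OE.

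The genomic setting of each member was read from GENCODE v44 on GRCh38, in which 14018 of the 17230 tested genes (81.4%) were matched by symbol. CCND1 lies at chr11:69641156-69654474 on the plus strand, 797 kb from the targeted gene CPT1A at chr11:68754620-68844410 on the minus strand. The 3 tested genes between them, MRPL21, IGHMBP2 and TPCN2, had log2 fold changes of -0.13, 0.06 and 0.04 in KD and of 0.10, 0.02 and -0.0072 in OE. MRPL21 had the signs of CPT1A in both arms, and all 3 changes were small beside those of CPT1A (-1.64 in KD and 1.45 in OE). Over the 156 tested genes within 5 Mb of CCND1 the median log2 fold change in KD was 0.20, close to the 0.26 of CCND1 itself, with 52 called higher and 15 lower. The same neighbours had a median of 0.18 in OE and 0.21 in EV versus NT.

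E2F1 (chr20:33675477-33686385, minus strand), CDKN2C (chr1:50960745-50974634, plus strand) and CDK2 (chr12:55966781-55972789, plus strand) stood far from their neighbours in KD, whose medians were 0.14 over 96 genes, 0.17 over 73 and 0.03, the last over the neighbours of CDK2. CCNE1 (chr19:29811991-29824312, plus strand) and RBL1 (chr20:36996349-37095997, minus strand) did so too, beside medians of 0.02 over 33 genes and 0.14 over 93. For CCND3 (chr6:41934934-42050357, minus strand) the 82 neighbours had a median of 0.29 in KD and 0.19 in OE. For CDK4 (chr12:57747727-57756013, minus strand) the median over 128 neighbours was 0.04 in KD, below the 0.36 of CDK4, and 0.13 in OE, close to the 0.17 of CDK4. CDKN1B (chr12:12685498-12722369, plus strand) had 52 neighbours with medians of -0.01 in KD and 0.01 in OE. The 37 neighbours of CCNE2 (chr8:94879770-94896678, minus strand) had a median of -0.25 in KD, opposite to CCNE2, and of -0.19 in OE and -0.24 in EV versus NT, on the same side as CCNE2. The cause of such regional medians was not tested.

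**Figure D5:**
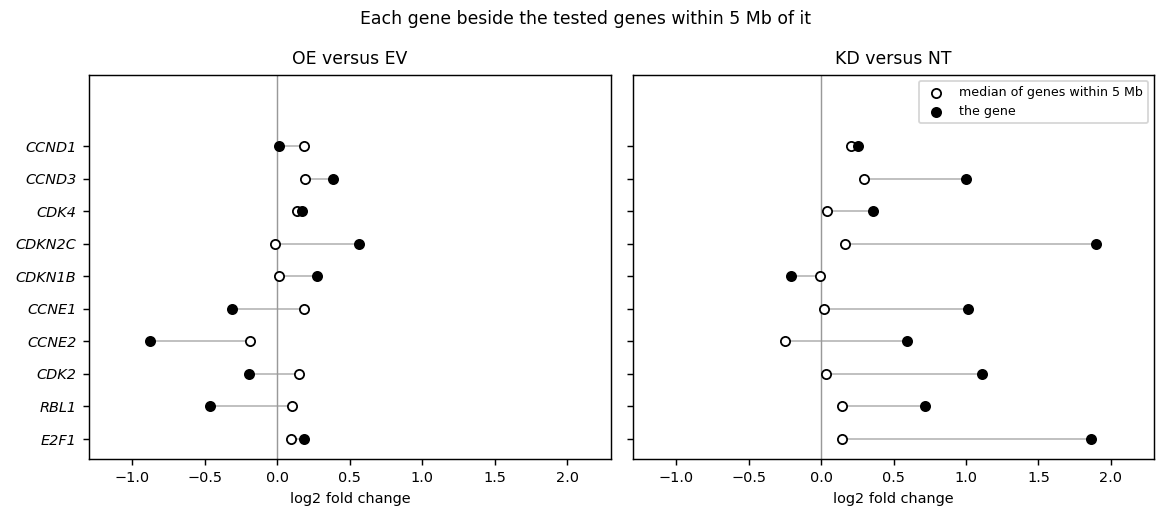
Log2 fold change of each gene (filled) and the median of the tested genes within 5 Mb of it (open) in OE versus EV and KD versus NT. In KD, CCND1 sits beside its neighbours' median, at 0.26 against 0.20, whereas E2F1 and CDKN2C stand at 1.86 and 1.90 against 0.14 and 0.17.

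Some members overlap genes of the opposite strand, and whether counting used strand is not given in the sources used here, so reads of such pairs may not be told apart. CCNE2 shares 1629 exonic bases with INTS8, which was at 40.3 to 65.2 CPM and had log2 fold changes of -0.36 in KD, -0.19 in OE and -0.40 in EV versus NT. The rise of CCNE2 in KD was thus opposite to its overlapping gene, while in OE both values were negative. CDK4 shares 1369 exonic bases with TSPAN31 (-0.24 in KD), CCND1 497 with LTO1 (-0.30 in KD) and CDK2 89 with PMEL. Exons of CDKN2C, CDK2 and RBL1 also overlap long non-coding RNAs over 617, 565 and 213 bases.

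The genes most like each member were ranked by Pearson r of log2 CPM over the 10 samples among 9971 genes of sufficient level. The 10 samples share 4 lines, so r mostly describes the order of 4 group means. For CDK2 the closest were NCAPG2, a condensin subunit (r = 0.997), MCM4 (0.997) and PCNA, the sliding clamp of DNA polymerase (0.995), and for CCNE1 they were ERVMER34-1 (0.996), GUCY1B1 and MCM6 (0.99). CDKN2C was closest to STMN1, a tubulin-binding protein (0.999), TM4SF1 and the condensin subunit NCAPH. For CCNE2 they were CENPJ, a centriole protein (0.996), RAI14 and NETO2, for RBL1 PDSS1 (0.994), DHX15 and KNTC1, and for E2F1 PRPS1, HIP1 and SLC29A1 (0.994). CDKN1B was closest to PKD1 (0.989), FBXL16 and PPP1R15A, CCND1 to SNN (0.984), TEX2 and IQCE, CCND3 to ELAC2 (0.993), POLR2D and IMP4, and CDK4 to MRPL44 (0.99), MAPKAP1 and TBCD.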

How the data were processed

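RNA was collected from 10 samples of LNCaP-C4-2 cells and sequenced as paired poly(A) mRNA libraries. The authors removed adapters with BBDuk, mapped reads with STAR 2.6.0a to the Ensembl hg38.p12 transcriptome and deposited whole-number counts per gene symbol. Strand use and the handling of multi-mapping reads are not given in the sources used here. The table holds 57353 genes, and 0 columns of per-sample values were left out. The samples were grouped by the labels, which also give the replicate numbers.

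Counts were filtered with filterByExpr, scaled with TMM and fitted with 1 mean per line in edgeR 4.0.16 (R 4.3.3), using a robust quasi-likelihood F test over 17230 genes. A gene was called at a Benjamini-Hochberg adjusted p under 0.0001. The common biological coefficient of variation was 0.0446, and the SE of the members' log2 fold changes was 0.0449 to 0.159. SD are between samples of a line, intervals are 95%, and the limit of 3 counts covers counting error only. Replicate pairs differed by more than sampling noise (chi-square divided by its degrees of freedom, 2.08 to 7.29). Pairs with KD replicate 2 gave 7.14 and 7.29, against 2.35 for the other KD pair. Pairs with OE replicate 2 gave 4.05 and 4.69, against 2.23 for the other OE pair.

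The members and the lists were chosen with earlier results of these data known. All members are named, with the called genes of the 4 largest absolute changes per list and comparison, CCND2, CDK6, CDKN1A and RB1, and the 3 genes most like each member with an average log2 CPM of at least 3. Alternatives were DESeq2 1.42.0 and its size factors, limma-voom (limma 3.58.1), library size alone, a minimum of 10 counts in every sample, no filter, a limit of 0.05, a replicate block, each arm alone and leaving out each sample. Promoters came from RefSeq (GRCh38.p14), and positions and exon lengths from GENCODE v44, which may differ from the annotation of the authors.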

Additional observations from a re-analysis of the deposited data

How the results depend on the processing

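Among 700 values of single members under alternatives, 653 kept their direction and their side of the limit, 33 lost a call, 9 gained one and 5 changed sign. The sign changes were of values near 0: CCND1 in OE versus EV (-0.087 with library size alone, -0.000707 with at least 10 counts in every sample), and, when each sample in turn was left out, CCND1 in OE versus EV (-0.00799 without OE replicate 3, up to 0.0284), CDKN2C in EV versus NT (-0.0548 without NT replicate 1, up to 0.33) and CDKN1B in EV versus NT (0.0144 without EV replicate 2, down to -0.0506). Depth limits mainly CCND2 and other genes near 3 counts. At an adjusted p under 0.05 the members called were 9 in OE versus EV and 5 in EV versus NT, the partner genes 20 for OE versus EV, 23 for KD versus NT, 14 in EV versus NT and 24 in the interaction, and the E2F targets 15 in OE versus EV and 12 in EV versus NT. All genes at that limit numbered 4426 higher and 4551 lower for OE versus EV, 5017 and 4877 for KD versus NT, 3221 and 2627 in EV versus NT, and 3507 and 4121 in the interaction. With library size alone, 1 member was called in OE versus EV, and 1338 genes were higher there and 779 in the interaction. With no filter, 5 members and 12 targets were called in OE versus EV, 6 targets in EV versus NT, and 879 genes lower in EV versus NT. With at least 10 counts in every sample 1 member was called in OE versus EV, and with each arm fitted alone 11 targets were. Leaving out each sample in turn gave 1 to 5 members, 1 to 10 partner genes and 2 to 11 targets in OE versus EV, and 0 to 4 partner genes and 1 to 3 targets in EV versus NT. For all genes this gave 1053 to 2633 higher and 859 to 2413 lower for OE versus EV, 1864 to 3035 and 1350 to 2402 for KD versus NT, 415 to 1522 and 181 to 1007 in EV versus NT, and 819 to 1648 and 1065 to 2125 in the interaction. The causes were not tested.

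The deviations of same-numbered samples of different groups correlated by -0.0028 on average over 13 pairs (-0.044 to 0.078). For samples of different groups with other numbers the average was 0.0016 over 24 pairs (-0.081 to 0.063). The highest value was that of KD replicate 2 with OE replicate 2. Whether same-numbered samples shared a batch was not tested. With a replicate block the members called numbered 9 for KD versus NT, 4 for OE versus EV, 1 for EV versus NT and 8 for the interaction, and the one call that changed was CCND3 in OE versus EV.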
